A study of Mus musculus with 12 samples.

Results

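The genes of the interleukin-12 (IL-12) family and its receptors, including IL-27, were followed in CT-26 tumors. The 8 genes Il27, Ebi3, Il12a, Il12b, Il23a, Il27ra, Il12rb1 and Il12rb2 were picked by symbol from the 30630 mouse genes listed for every tumor. The family was picked with the group values of these tumors already known, so its swimming and control values are described here without a test. CT-26 is a mouse colon carcinoma cell line. Cells in Matrigel were injected under the skin of the right flank of male BALB/c mice, aged 4 to 6 weeks on purchase, and the tumors were taken after 3 weeks of experiment. RNA-Seq was performed on 6 of 10 control tumors, from mice that did not swim, and 6 of 10 swimming tumors, from mice that were made to swim in 2 daily sessions lasting up to 30 min on 6 days per week. No other agent is named for either group in the sources used here, nor is the origin of the injected cells as a clone or a pool.

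IL-12 family cytokines are secreted as a helical alpha chain bound to a receptor-like beta chain. Il12a encodes the alpha chain p35, Il23a the alpha chain p19 and Il27 the alpha chain p28, while Il12b encodes the beta chain p40 and Ebi3 the beta chain EBI3. IL-12 is p35 with p40, IL-23 is p19 with p40, IL-27 is p28 with EBI3, and p35 with EBI3 is known as IL-35. IL-12, IL-23 and IL-27 are made mainly by macrophages and dendritic cells, and T cells and NK cells carry the receptors. IL-12 drives interferon gamma production through STAT4, IL-23 sustains Th17 cells, and IL-27 signals through STAT proteins with both stimulating and restraining effects on T cells. Interferon gamma is in turn known to induce transcription of Il27 in myeloid cells.

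Expression was given as FPKM, a fragment number divided by gene length and by sequencing depth, so that levels of different genes can be set side by side on this scale. FPKM files carry no read numbers, but the values of genes with a single annotated transcript moved in fixed steps. After multiplication by transcript length in kilobases, between 99.1% and 99.5% of low values per tumor lay within 0.02 steps of a multiple of 0.25 steps. The number of steps per unit of FPKM and kilobase gave the depth of each tumor relative to control 1, which was lowest in control 2 (0.694) and lay from 0.871 to 0.973 for the remaining 10. How many reads a step stands for was not given in the sources used here. In the tumor tissue as labelled, the carcinoma keratins Krt20, Krt8 and Krt18 were present. Their means were 154, 29.0 and 10.1 FPKM in control tumors and 125, 6.11 and 9.37 FPKM in swimming tumors. Tumors varied, and 8 colon epithelium and carcinoma genes summed to 134.5 to 323 FPKM in control tumors and 119 to 167.6 FPKM in swimming tumors. Of these 8, the epithelial genes Epcam, Cdx2 and Vil1 did not reach 0.1 FPKM in at least 6 tumors. Macrophage genes were abundant, with C1qa at a mean of 362 FPKM in control tumors and 395 FPKM in swimming tumors. In such bulk tissue, fewer cells of a type and less RNA per cell cannot be told apart.

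Promoter sequences are shown for 3 family genes with a measured level, so that both beta chains and 1 receptor chain can be read beside their values. RefSeq promoters on GRCm38.p6 were matched for 4 of the 8 genes, and each line gives the 250 bases before the annotated start, read 5′ to 3′ on the strand of the gene. Capitals mark letters that match one of 6 motifs searched on both strands. These were TTCNNNGAA (a STAT site, GAS), GAAA followed after NN by GAAA (ISRE), the same letters with GT in place of NN (an IRF site, contained in the ISRE), GGG followed after NNNNN by CC (kappaB), TGANTCA (AP-1) and TGACGTCA (CRE).

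Ebi3, chr17:55952373-55952622, plus strand: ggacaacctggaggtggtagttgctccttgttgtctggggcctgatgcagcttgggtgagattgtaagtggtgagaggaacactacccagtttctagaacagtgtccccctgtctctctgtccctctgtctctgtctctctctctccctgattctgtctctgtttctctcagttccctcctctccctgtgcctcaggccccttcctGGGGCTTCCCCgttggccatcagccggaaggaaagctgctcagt

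Il12b, chr11:44399813-44400062, plus strand: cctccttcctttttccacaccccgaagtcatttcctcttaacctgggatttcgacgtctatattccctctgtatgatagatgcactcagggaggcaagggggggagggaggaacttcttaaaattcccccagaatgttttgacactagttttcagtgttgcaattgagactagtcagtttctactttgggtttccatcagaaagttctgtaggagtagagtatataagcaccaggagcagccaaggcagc

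Il12rb2, chr6:67376189-67376438, minus strand: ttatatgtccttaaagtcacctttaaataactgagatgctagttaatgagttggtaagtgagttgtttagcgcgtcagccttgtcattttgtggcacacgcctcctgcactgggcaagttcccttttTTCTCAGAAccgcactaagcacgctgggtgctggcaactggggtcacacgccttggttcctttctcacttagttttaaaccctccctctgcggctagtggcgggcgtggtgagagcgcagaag

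Ebi3 held 2 overlapping kappaB matches, together 44 to 34 bases before the start, and 45.8% of the 32851 promoters compared hold this motif. Il12rb2 held 1 GAS match, 123 to 115 bases before the start, a motif found in 7.02% of promoters. No motif of the 6 was found in the window of Il12b.

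Over all 12 tumors, the family was weakly expressed, and the beta chain of IL-27 was its most abundant member on the FPKM scale. The mean level was 1.97 FPKM for Ebi3, 1.55 FPKM for Il12rb1, 0.741 FPKM for Il27ra, 0.563 FPKM for Il27, 0.283 FPKM for Il12b, 0.206 FPKM for Il12rb2 and 0.184 FPKM for Il23a. Il12a was listed at 0 in 7 tumors. Several neighbours in this order were not separated over the 12 tumors, and their order could differ between the groups. Ebi3 was above Il12rb1 in 8 of 12 tumors (5 control and 3 swimming). Il27ra was above Il27 in 7 of 12 (5 control and 2 swimming). Il12b was above Il12rb2 in 7 of 12 (3 control and 4 swimming), and Il12rb2 above Il23a in 7 of 12 (2 control and 5 swimming). In contrast, Il12rb1 was above Il27ra in 12 of 12 tumors, and Il27 was above Il12b in 11 of 12. Of the 8 genes, 7 reached at least 0.1 FPKM in at least 6 tumors and entered the comparison across 19018 genes, and Il12a did not.

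Il27 (ENSMUSG00000044701, chromosome 7, 126589010 to 126594941 in GRCm38, minus strand), a protein-coding gene with 1 annotated transcript of 1021 bases, showed the widest separation between the groups in the family. In control tumors 1 to 6 it was 0.357, 0.238, 0.448, 0.487, 0.250 and 0.291 FPKM. In swimming tumors 1 to 6 it was 0.523, 0.895, 1.12, 0.426, 0.872 and 0.855 FPKM. Thus 5 of 6 swimming tumors were above every control tumor, and only swimming 4 lay within the control range. Mean levels were 0.345 ± 0.104 FPKM for control and 0.781 ± 0.258 FPKM for swimming tumors (SD, n = 6 each), a ratio of 2.26, and the difference between them was larger than the SD of either group. On the log2(FPKM + 1) scale, which understates changes of weakly expressed genes, the difference was 0.40 (standard error 0.10). With a pseudocount of 0.01 in place of 1 it was 1.13, and leaving out each tumor in turn gave 0.34 to 0.46.

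The Il27 values rest on little sequence. They correspond to 3 to 7.75 steps in control tumors, with a median of 5.75, and to 6.75 to 19 steps in swimming tumors, with a median of 14.6. The lowest number of steps belonged to control 2, the tumor with the lowest depth, although FPKM is corrected for depth. Of the exon bases of Il27, 10.1% (103 bases) are shared with Apobr on the opposite strand, and the library kit named in the labels is not described there as keeping strand. Apobr was far more abundant, at 20.7 ± 1.52 FPKM (SD, n = 6) in control tumors and 18.6 ± 1.98 FPKM (SD, n = 6) in swimming tumors. Its log2 difference was -0.15 (standard error 0.07, limma adjusted p = 0.889). Whether reads of Apobr entered the Il27 values was not tested. Within groups, Il27 and Apobr had an r of -0.49 (exact permutation p = 0.166) and a rho of -0.43 (exact permutation p = 0.207). The adjusted p over 4 overlapping pairs was 0.331 for r and 0.395 for rho.

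Ebi3 (ENSMUSG00000003206, chromosome 17, 55952640 to 55957022, plus strand), which encodes the partner chain of p28, was similar in the centre of both groups. Control tumors ranged from 1.53 to 2.10 FPKM with a median of 1.91, and swimming tumors from 1.502 to 2.89 FPKM with a median of 1.82. The groups overlapped, and the higher swimming mean (2.07 ± 0.629 against 1.87 ± 0.250 FPKM, SD, n = 6 each) came from swimming 2 and swimming 5 at 2.89 and 2.83 FPKM. Without swimming 2 the log2 difference fell from 0.08 (standard error 0.12) to 0.0021. Ebi3 exceeded Il27 in all 12 tumors. The ratio of Ebi3 to Il27 per length ranged from 3.60 to 8.73 in control tumors (median 5.82) and from 1.34 to 4.27 in swimming tumors (median 3.09). A stretch of 270 bases, 23.4% of the exon bases of Ebi3, is shared with Gm16712 on the opposite strand. This transcript was at 0.202 FPKM in control tumors and 0.284 FPKM in swimming tumors on average. Within groups, Ebi3 and Gm16712 had an r of 0.44 (exact permutation p = 0.27) and a rho of 0.38 (exact permutation p = 0.296). The adjusted p over 4 overlapping pairs was 0.36 for r and 0.395 for rho.

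**Figure D1:**
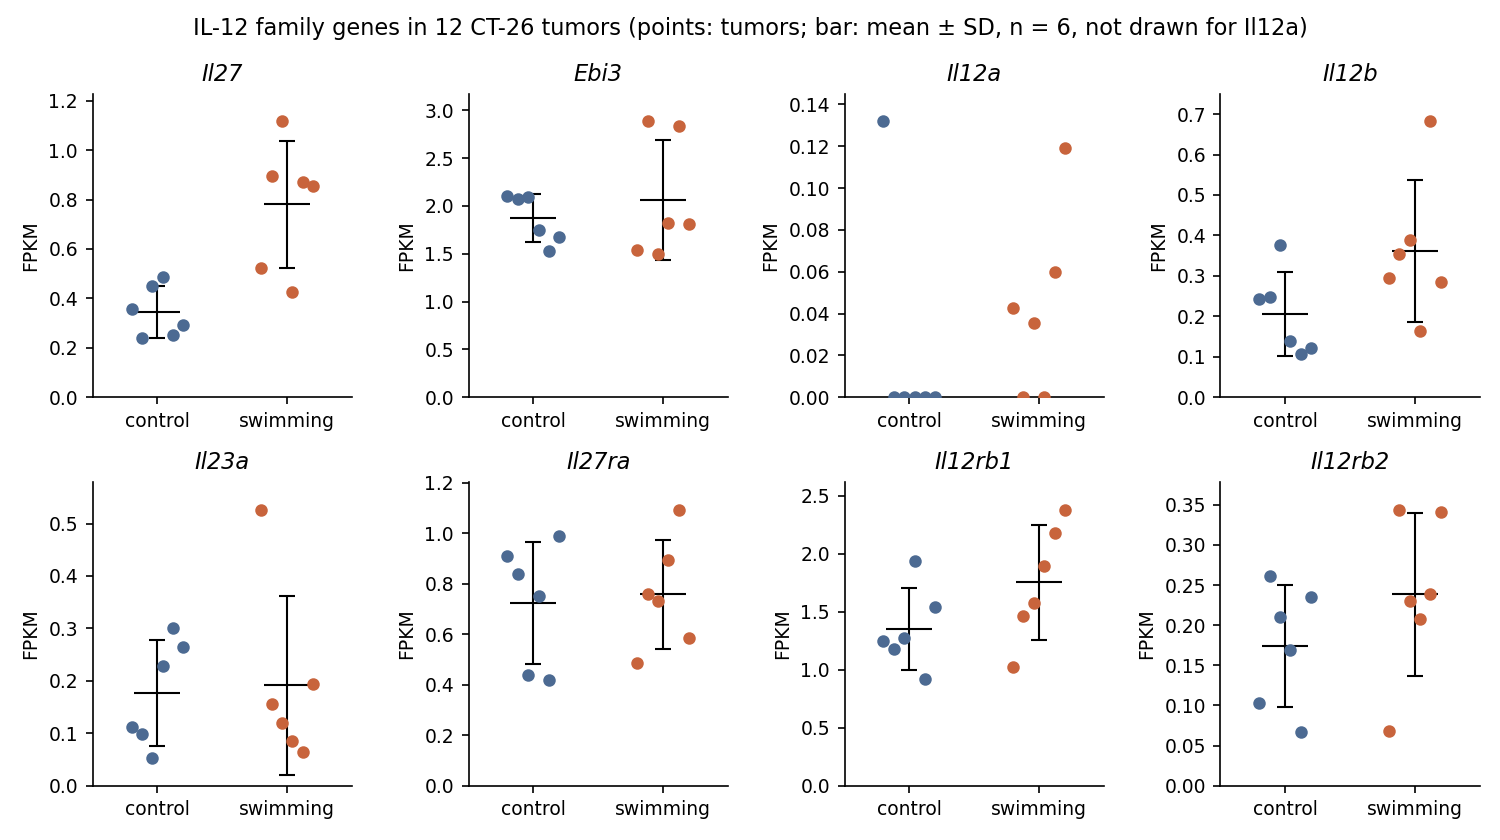
FPKM of the 8 IL-12 family genes (vertical axes, starting at 0 and scaled per gene) in 6 control and 6 swimming tumors. Points are tumors and bars are mean ± SD (n = 6), drawn for 7 genes. For Il27, 5 of 6 swimming tumors sit above the highest control tumor at 0.487 FPKM, and the groups overlap for all 8 genes.

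Il12b (ENSMUSG00000004296, chromosome 11, 44400063 to 44414033, plus strand), encoding the p40 chain of IL-12 and IL-23, ranged from 0.107 to 0.375 FPKM in control tumors with a median of 0.191. In swimming tumors it ranged from 0.164 to 0.683 FPKM with a median of 0.324. Of the swimming tumors, 5 of 6 were above the control median and 2 of 6 above the highest control, so the groups overlapped broadly. The means were 0.205 ± 0.103 and 0.361 ± 0.175 FPKM (SD, n = 6 each), and the log2 difference was 0.17 (standard error 0.08). It was 0.11 without swimming 5, the tumor with the highest value. With a pseudocount of 0.01 it was 0.80.

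Both alpha chains that pair with p40 were weakly expressed. Il12a (ENSMUSG00000027776, chromosome 3, 68690644 to 68698547, plus strand) was listed at 0 in 5 of 6 control tumors and stood at 0.132 FPKM in control 1. In the swimming group it was listed at 0 in swimming 2 and swimming 4, and the other 4 tumors were at 0.0424, 0.0353, 0.0601 and 0.119 FPKM. A single step over its longest transcript corresponds to 0.0431 to 0.0621 FPKM depending on the tumor, so these values are a few steps at most. Il23a (ENSMUSG00000025383, chromosome 10, 128296139 to 128298752, minus strand) ranged from 0.0525 to 0.301 FPKM in control tumors with a median of 0.170. In swimming tumors it ranged from 0.0649 to 0.527 FPKM with a median of 0.138. For Il23a the log2 difference was 0.01 (standard error 0.09), and only 2 of 6 swimming tumors were above the control median. Swimming 1 held the highest Il23a value of all 12 tumors, and without it the log2 difference was -0.06. A difference in Il12a was not detectable at this level, and that of Il23a was smaller than its standard error.

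Among the receptor chains, Il12rb1, which is shared by the IL-12 and IL-23 receptors, was the most abundant on the FPKM scale. Its log2(FPKM + 1) difference was the largest of the 3 chains, whereas with a pseudocount of 0.01 that of Il12rb2 was larger (0.41 against 0.36). Il12rb1 (ENSMUSG00000000791, chromosome 8, 70808449 to 70821424, plus strand) ranged from 0.919 to 1.94 FPKM in control tumors with a median of 1.26. Its swimming values ranged from 1.03 to 2.38 FPKM with a median of 1.74. The means of Il12rb1 were 1.35 ± 0.351 and 1.75 ± 0.497 FPKM (SD, n = 6 each), a log2 difference of 0.22 (standard error 0.13) with 5 of 6 swimming tumors above the control median. The lowest swimming tumor was swimming 1, without which the difference was 0.31.

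Il12rb2 (ENSMUSG00000018341, chromosome 6, 67291318 to 67376188, minus strand), the second chain of the IL-12 receptor, was weaker. It ranged from 0.0673 to 0.261 FPKM in control tumors (median 0.190) and from 0.0685 to 0.344 FPKM in swimming tumors (median 0.234). For Il12rb2 the log2 difference was 0.07 (standard error 0.06) with a pseudocount of 1, 0.29 with 0.1 and 0.41 with 0.01, and swimming 1 was again the lowest tumor of its group. Of its exon bases, 40.0% (1519 bases) are shared with Serbp1 on the opposite strand, a gene at 26.3 ± 1.78 FPKM in control tumors and 26.0 ± 2.04 FPKM in swimming tumors (SD, n = 6 each). Whether reads of Serbp1 entered the Il12rb2 values was not tested. Within groups, Il12rb2 and Serbp1 had an r of 0.05 (exact permutation p = 0.891) and a rho of 0.11 (exact permutation p = 0.75), with an adjusted p over 4 overlapping pairs of 0.891 for r and 0.75 for rho.

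Il27ra (ENSMUSG00000005465, chromosome 8, 84030294 to 84042589, minus strand), the chain that binds IL-27 together with gp130, was nearly level between the groups. It ranged from 0.417 to 0.989 FPKM in control tumors (median 0.795) and from 0.487 to 1.09 FPKM in swimming tumors (median 0.745). Its log2 difference was 0.03 (standard error 0.11) and turned to -0.02 without control 5. Il6st, which encodes gp130, was much more abundant, at 15.3 ± 3.29 FPKM in control tumors and 13.5 ± 1.84 FPKM in swimming tumors (SD, n = 6 each), and exceeded Il27ra in all 12 tumors. Il23r, the specific chain of the IL-23 receptor, was listed at 0 in 5 of 6 tumors of each group, with 0.0237 FPKM in control 3 and 0.0242 FPKM in swimming 3.

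Counted over the family, the swimming mean on the log2 scale was higher in 7 of the 7 genes compared, where 51.7% of all 19018 genes had a higher swimming mean. For Ebi3, Il23a and Il27ra, however, the swimming median was below the control median, and only 2 of 6 swimming tumors were above the control median. The median log2 difference was 0.08 for the 7 genes and 0.0039 for all genes. At least 5 of 6 swimming tumors were above the control median in 4 of the 8 genes (Il27, Il12b, Il12rb1 and Il12rb2), against 20.2% of all genes. At least 4 of 6 swimming tumors were above the control maximum in Il27 alone, against 3.44% of all genes. None of the 8 genes had groups without overlap, against 0.147% of all genes. These counts come from the same values for which the family was picked and are descriptions. Over all genes, limma called 0 genes (0.0%) after adjustment at 0.05, and 591 higher (3.11%) and 467 lower (2.46%) genes at an unadjusted p below 0.05.

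To place the family in its pathway, 76 genes around it were listed, of which 67 could be compared. By limma, 0 of the 67 passed at an adjusted p below 0.05. At an unadjusted p below 0.05, 16 of 67 were higher in the swimming group, or 23.9% against 3.11% of all genes, and 1 was lower. Their median log2 difference was 0.12. The lists were chosen with earlier results of these data known, so the count is not a test of the list. It also moved with single tumors. It was 9 without control 6, 9 without swimming 6, 10 without control 5 and 24 without swimming 1. The count of higher genes over all genes moved as well, to 491, 507, 398 and 853 in the same order. With the replicate number as a block, 12 pathway genes and 451 of all genes were higher.

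Among the signal transducers below the receptors, Stat3, Stat4 and Stat5a were higher at an unadjusted p below 0.05. Stat4, used by IL-12, had a mean of 0.343 ± 0.0907 FPKM in control tumors and 0.526 ± 0.192 FPKM in swimming tumors. Its log2 difference was 0.18 (limma adjusted p = 0.889, two-sided exact permutation p = 0.039), with all 6 swimming tumors above the control median. Stat5a and Stat3 had log2 differences of 0.19 and 0.12. The receptor kinases Jak1, Jak2 and Tyk2 had log2 differences of 0.09, -0.01 and 0.07, with limma adjusted p from 0.899 to 0.986.

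Of 13 genes known for the IL-12 and Th1 response, 3 were higher at an unadjusted p below 0.05, or 23.1% against 3.11% of all genes. The swimming mean on the log2 scale was higher in 10 of the 13, against 51.7% of all genes. Ifngr2, Prf1 and Klrg1 went the other way, with log2 differences of -0.03, -0.22 and -0.38. Ifng, the main product of IL-12 signaling, ranged from 0.125 to 0.584 FPKM in control tumors (median 0.398) and from 0.334 to 1.83 FPKM in swimming tumors (median 0.948). As with Il27, 5 of 6 swimming tumors were above every control tumor, but the exception differed. It was swimming 1 for Ifng, at 0.334 FPKM, and swimming 4 for Il27. The log2 difference of Ifng was 0.55 (standard error 0.17, limma adjusted p = 0.889, two-sided exact permutation p = 0.0173). Ccl5, a chemokine of activated lymphocytes, and Cxcr3, a chemokine receptor of Th1 cells, had log2 differences of 0.60 and 0.37. Tbx21, the Th1 transcription factor T-bet, was 0.433 ± 0.251 FPKM in control tumors and 0.735 ± 0.340 FPKM in swimming tumors (two-sided exact permutation p = 0.113).

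Of 13 genes of the IL-27 response that could be compared, 4 were higher and 1 was lower at an unadjusted p below 0.05. Of all genes, 3.11% were higher and 2.46% lower. The swimming mean on the log2 scale was higher in 9 of the 13. Besides Procr, it was lower for Pdpn, Tigit and Maf, with log2 differences of -0.35, -0.11 and -0.10. Lag3, an inhibitory receptor of T cells, had a mean of 1.15 ± 0.315 FPKM in control tumors and 1.99 ± 0.453 FPKM in swimming tumors (SD, n = 6 each), and 5 of 6 swimming tumors were above every control tumor. The log2 difference of Lag3 was 0.48 (standard error 0.12, limma adjusted p = 0.889, two-sided exact permutation p = 0.00866). Bcl3, the aryl hydrocarbon receptor gene Ahr and Cd274, which encodes PD-L1, had log2 differences of 0.27, 0.21 and 0.50. Procr, which encodes the endothelial protein C receptor, was 8.84 ± 1.81 FPKM in control tumors and 6.77 ± 0.962 FPKM in swimming tumors. Its log2 difference was -0.33 (limma adjusted p = 0.889, two-sided exact permutation p = 0.0476).

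Of 16 genes named as inducers of the family in myeloid cells, 4 were higher at an unadjusted p below 0.05, or 25% against 3.11% of all genes. The nucleic acid sensor gene Tlr3, the interferon signaling gene Stat2, the costimulatory receptor gene Cd40 and the NF-kappaB subunit gene Rel had log2 differences of 0.39, 0.41, 0.30 and 0.15. Irf1, a factor known to act on the Il27 and Il12a promoters, was 19.5 ± 3.57 FPKM in control tumors and 25.9 ± 9.22 FPKM in swimming tumors (two-sided exact permutation p = 0.188). Irf8 was 6.63 ± 1.53 and 7.76 ± 1.48 FPKM (two-sided exact permutation p = 0.208). Among the 12 other partners and neighbours of the family, 1 gene was at an unadjusted p below 0.05, or 8.33% against 3.11% of all genes. It was Il15, a cytokine for NK cells and memory T cells, with a log2 difference of 0.32. A count of 1 in so short a list does not set it apart from all genes.

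Few genes of the IL-23 and Th17 side could be compared. Of its 10 listed genes 8 had values, and 4 reached 0.1 FPKM in at least 6 tumors. For these 4, limma gave 0 at an unadjusted p below 0.05. Il17a, Il22 and Il21 were not analysed here.

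**Figure D2:**
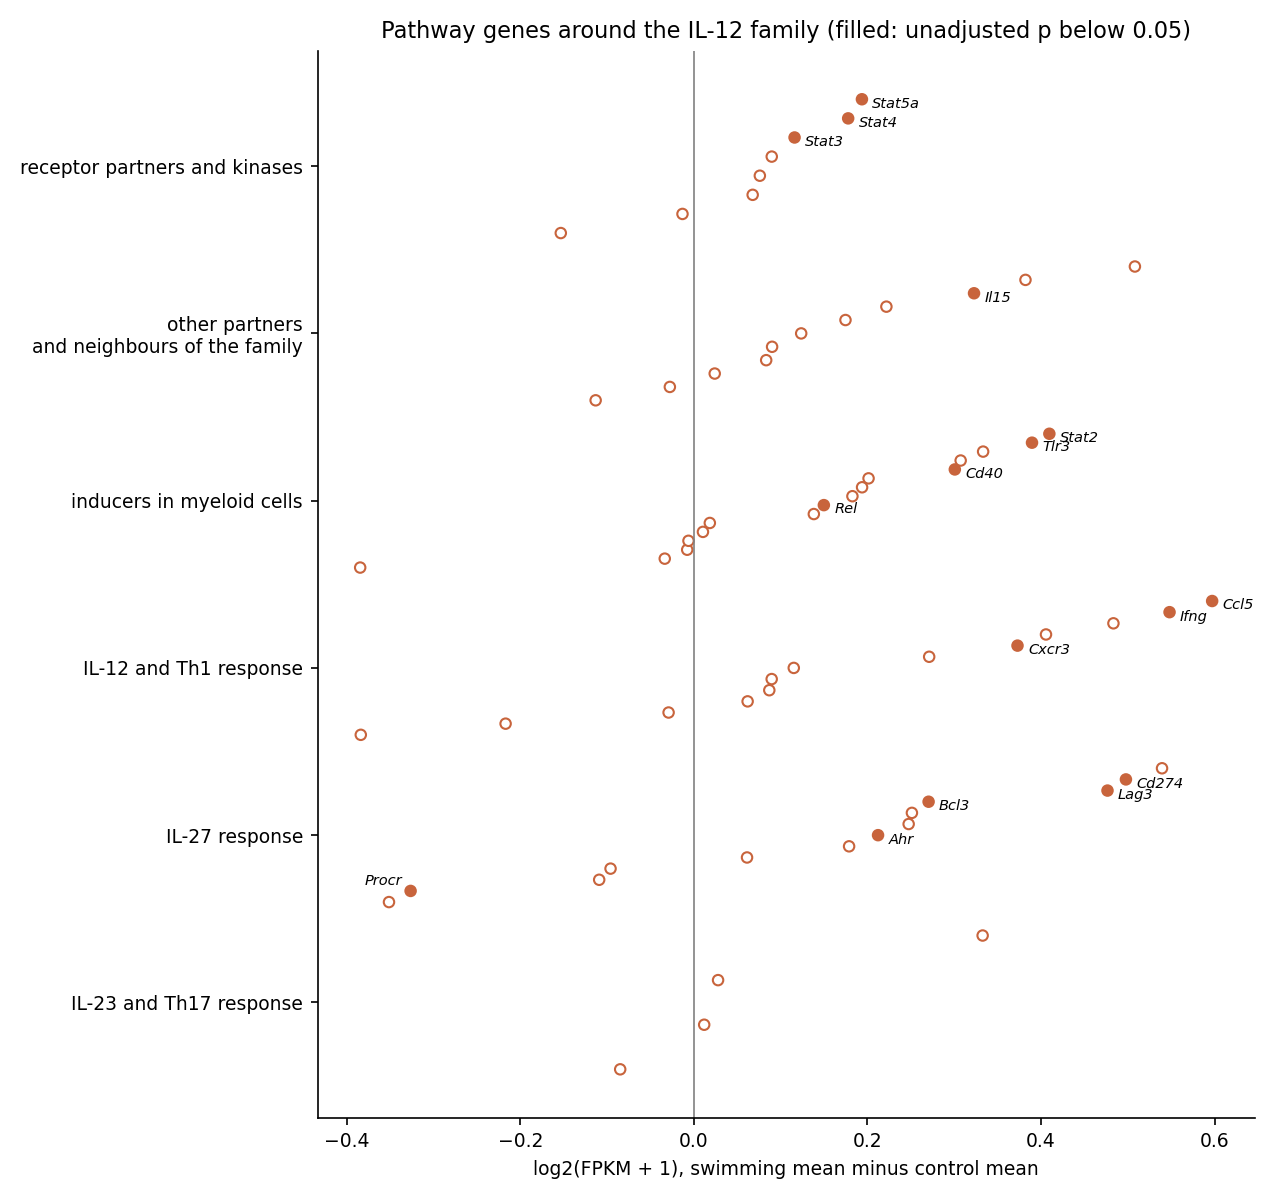
Difference in mean log2(FPKM + 1), swimming minus control (horizontal axis), for 65 of the 67 pathway genes compared, in 6 lists (vertical axis, genes spread within a list for legibility). Filled circles are the 16 genes drawn that limma gave at an unadjusted p below 0.05, of which 15 lie right of 0 and Procr lies left of it.

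Genes of other cells were counted by unadjusted p, and the counts differed between lists. Of all genes, 3.11% were higher and 2.46% lower at an unadjusted p below 0.05. The genes of a list are not independent, and the lists were chosen with earlier results of these data known. Of 16 genes induced by interferon gamma, 13 were higher at an unadjusted p below 0.05, and the summed level of the list ranged from 182 to 354 FPKM in control tumors and from 192 to 676 FPKM in swimming tumors. Of 11 T cell genes, 7 were higher, with summed levels from 8.07 to 25.7 FPKM in control tumors and from 17.3 to 43.6 FPKM in swimming tumors. Of 6 NK cell genes compared, 2 were higher, and the summed level ranged from 2.46 to 6.02 FPKM and from 3.41 to 8.70 FPKM. For the cells known to make IL-12, IL-23 and IL-27, 2 of 12 dendritic cell genes and 0 of 12 macrophage genes were higher. Summed macrophage genes ranged from 848 to 1221 FPKM in control tumors and from 963 to 1469 FPKM in swimming tumors. Of 9 monocyte and neutrophil genes and 8 fibroblast genes, 0 were higher, and 0 genes of any of these lists were lower at an unadjusted p below 0.05. B cell, endothelial, skeletal muscle, adipose and colon epithelium lists had 0 genes in either direction, with 5 of 7 B cell genes too low to compare, and summed muscle genes spanned 1.75 to 212 FPKM in control and 1.17 to 296 FPKM in swimming tumors. After adjustment limma called 0 of these genes, and the part of these cells in the family's values was not tested.

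Whether the family varied together was examined apart from the group difference, by subtracting the mean of each group from the log2(FPKM + 1) values of its tumors. Chains that form 1 cytokine or receptor were compared in 7 pairs by exact permutation within groups over 518400 arrangements. None of the 7 pairs passed after Benjamini-Hochberg adjustment. For the IL-27 chains Il27 and Ebi3, r was 0.24 (exact permutation p = 0.595, adjusted p = 0.974) and rho was 0.19 (exact permutation p = 0.603, adjusted p = 0.944). Without swimming 1 and swimming 4, the tumors farthest from the median of Il27, r was -0.21. Swimming 3 had the highest Il27 level and the lowest Ebi3 level of all 12 tumors.

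The receptor chains Il12rb1 and Il12rb2 had an r of 0.56 (exact permutation p = 0.0858, adjusted p = 0.562) and a rho of 0.34 (exact permutation p = 0.307, adjusted p = 0.716). This fell to 0.34 without control 4 and swimming 1. For the IL-23 chains Il23a and Il12b, r was -0.50 (exact permutation p = 0.161, adjusted p = 0.562) and rho was -0.60 (exact permutation p = 0.0551, adjusted p = 0.386), and r was -0.60 without control 5 and swimming 1. For Il27ra and Il6st, r was 0.01 (exact permutation p = 0.974) and rho was 0.03 (exact permutation p = 0.923). The remaining 3 pairs contain Il12a or Il23r, which were listed at 0 in most tumors, and their adjusted p was 0.974 for each.

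The 7 measured family genes were then compared with the scores of 7 gene lists in the same way, a score being the mean centred log2 value over the genes of a list in a tumor. Of the 49 pairs, 2 had an adjusted p below 0.05. Il12rb1 varied with the interferon gamma list, with an r of 0.87 (exact permutation p = 3.0e-04, adjusted p = 0.0147) and a rho of 0.84 (exact permutation p = 0.00125, adjusted p = 0.0612). The relation was present in both groups, with r at 0.88 in control tumors and 0.90 in swimming tumors, and r was 0.79 without control 4 and swimming 1. Leaving out each tumor in turn kept r between 0.84 and 0.91. The adjusted p then ranged up to 0.21 and was above 0.05 without control 4, control 5, swimming 1 or swimming 5.

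Il23a moved against the NK cell list, with an r of -0.87 (exact permutation p = 0.00101, adjusted p = 0.0247) and a rho of -0.77 (exact permutation p = 0.0064, adjusted p = 0.142). This relation rests on control 5 and swimming 1, without which r was -0.55 (exact permutation p = 0.0692). The adjusted p was above 0.05 without control 3, control 4, control 5, control 6, swimming 1 or swimming 5, and r was between -0.90 and -0.70 when each tumor was left out in turn. Ebi3 and the T cell list had an r of 0.72 (exact permutation p = 0.00927, adjusted p = 0.115) with a rho of 0.71 (exact permutation p = 0.0098, adjusted p = 0.142). Il27 and the interferon gamma list had an r of 0.57 (exact permutation p = 0.113, adjusted p = 0.278) with a rho of 0.56 (exact permutation p = 0.0787, adjusted p = 0.338), which did not pass. Il27 and the macrophage list had an r of 0.13 (exact permutation p = 0.705, adjusted p = 0.843) with a rho of 0.05 (exact permutation p = 0.891, adjusted p = 0.958).

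**Figure D3:**
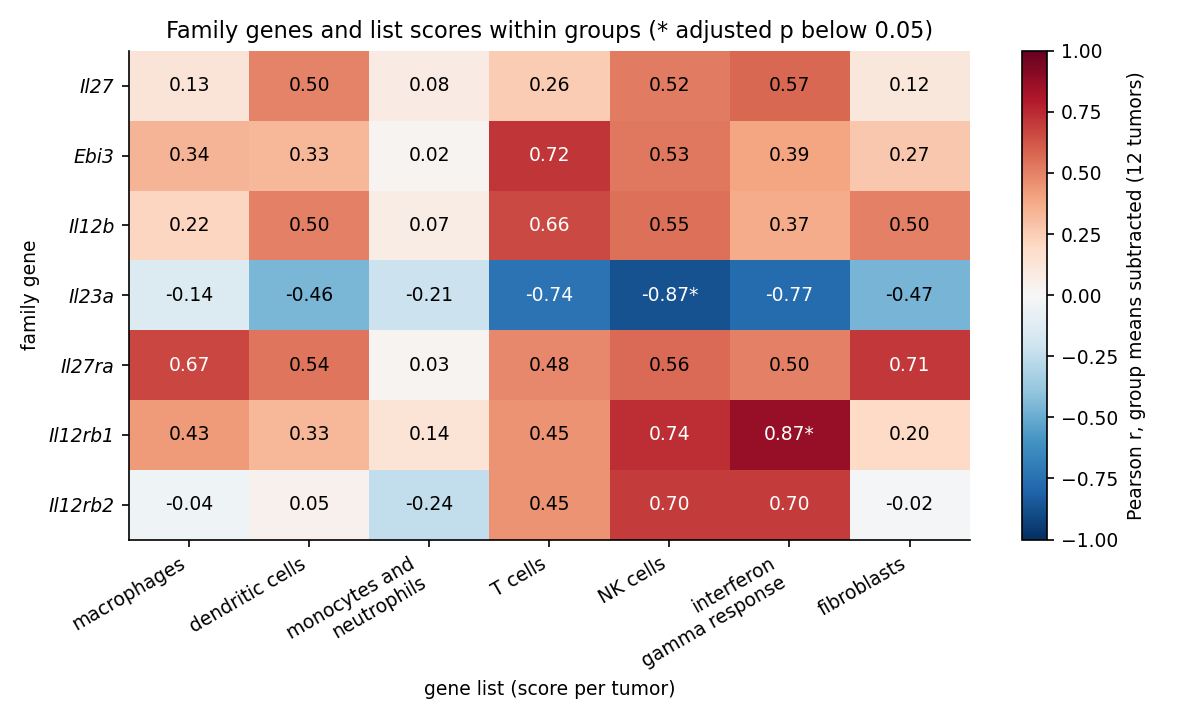
Pearson r between 7 family genes (rows) and the scores of 7 gene lists (columns) over 12 tumors after subtraction of group means, from -1 in blue to 1 in red. Asterisks mark the 2 pairs with an adjusted p below 0.05, Il12rb1 with the interferon gamma list (0.87) and Il23a with the NK cell list (-0.87).

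**Figure D4:**
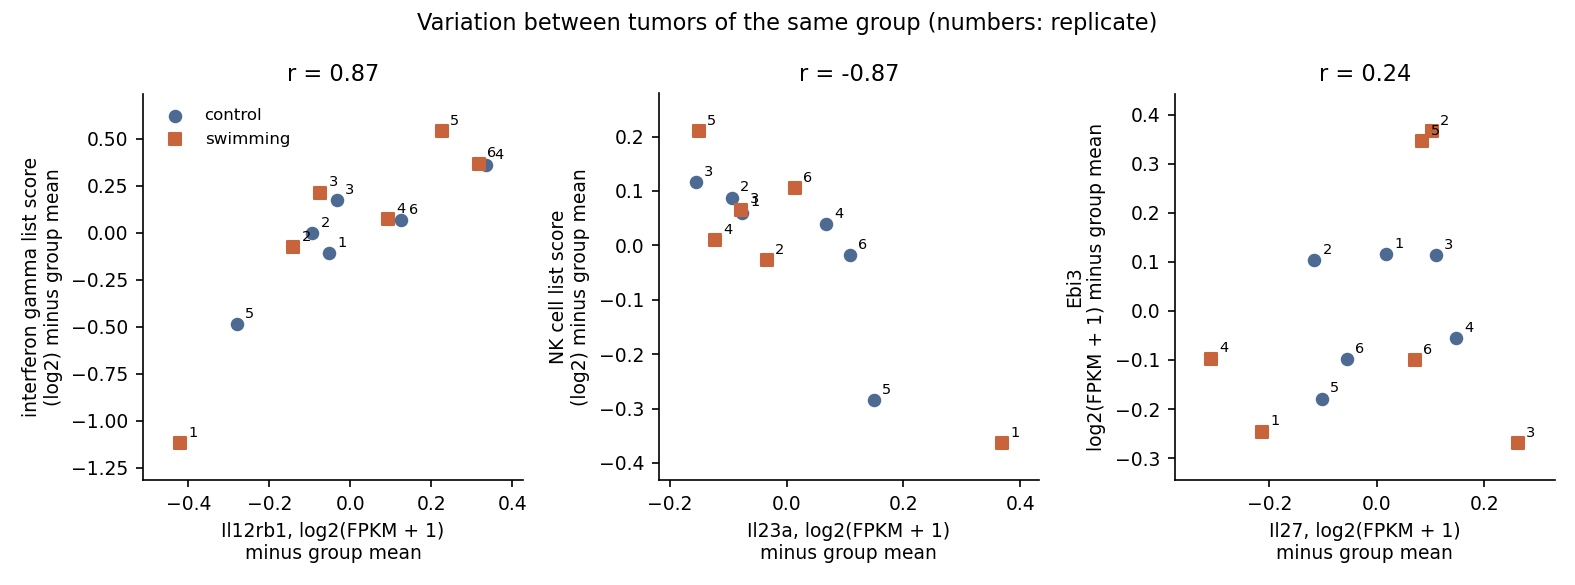
Deviation of each tumor from its group mean on the log2 scale, for Il12rb1 against the interferon gamma list score, Il23a against the NK cell list score and Il27 against Ebi3. Circles are control tumors and squares are swimming tumors, numbered by replicate, and swimming 1 and control 5 lie at one end of the first and second plot.

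Genes whose variation within the groups was most like that of each family gene were taken from those with a mean of at least 1 FPKM, and they are the top of 12763 genes or 1 fewer, so their r over 12 tumors is a description only. For Il12rb1 they were Anp32b (r = 0.94) and the interferon-inducible GTPase genes Gbp10 (0.91) and Iigp1 (0.91), of which Gbp10 has close paralogs that can share reads. Iigp1 is itself a gene of the interferon gamma list, so its likeness is not separate from the correlation with that list. For Il27ra they were the histone methyltransferase gene Suv39h1 (0.93), Ranbp3 (0.93) and Rasal3 (0.91). For Il27 they were Frrs1 (0.88), 2510039O18Rik (0.87) and the histone chaperone gene Daxx (0.87), and for Ebi3 they were Leprot (0.91), Suds3 (0.90) and Rundc1 (0.89). Il23a was most like Tenm4 (0.94), Gm14002 (0.93) and the chloride transporter gene Clcn3 (0.92). Il12b was most like Brms1l (0.87), 1110006O24Rik (0.87) and Gm7592 (0.87), and Il12rb2 was most like Gm15479 (0.90), Cyren (0.90) and Sirpb1a (0.89).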

How the data were processed

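Total RNA of 12 tumors was sequenced by the authors after removal of ribosomal RNA. Per the submitters' processing notes, reads were mapped with HISAT2 2.0.5 and quantified with StringTie 1.3.3. The paper names hg38 and the notes also name GRCm38, while the identifiers are mouse Ensembl genes. The authors deposited FPKM values, 1 per gene and tumor. Names and coordinates were joined by identifier from GENCODE M21 (GRCm38), which lists 30542 of the 30630 genes.

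Groups and replicate numbers are from the titles. The 19018 genes reaching 0.1 FPKM in 6 or more tumors were compared on log2(FPKM + 1) with lmFit and eBayes with trend in limma 3.58.1 (R 4.3.3), followed by Benjamini-Hochberg adjustment, checked on simulated data. Exact permutation of group labels (two-sided) was added for single genes, and its smallest p is 0.00216. For genes named for an unadjusted p below 0.05, it uses the same values again and adds no separate evidence. Correlations used two-sided exact permutation within groups. No counting interval is given, since FPKM values hold no read numbers. The tumors are from separate mice. Python 3.11.15 with pandas 2.3.3, scipy 1.17.1 and matplotlib 3.10.9 was used.

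The family members, the gene lists and the rule for named genes were chosen with earlier results of these data known. Named genes are the 8 members, fixed partners, the 3 genes most like each member, pathway genes at an unadjusted p below 0.05 and abundant list genes. Apobr, Gm16712, Palm3 and Serbp1 were added because their exons overlap members. Ifngr2, Prf1, Klrg1, Pdpn, Tigit and Maf were added because their swimming means were lower within their response lists. Values of some listed genes are not reported here. Alternatives were pseudocounts of 0.1 and 0.01, no filter, a filter of 1 FPKM, quantile normalization, trimmed mean scaling, eBayes without trend, a replicate block, values without log, pooled tumors and leaving out each tumor.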

Additional observations from a re-analysis of the deposited data

Results flagged for a closer look

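Single tumors standing apart within their group were sought with Dixon's ratio in 54 groups of 6 values, covering the family, named pathway genes, list scores and relative depth. It was found in 10 groups, where chance gives about 2.7, and the 10 are not independent. In the flagged groups of Il12a and Il23r all other tumors were at 0. Dixon's ratio is then 1 for any value above 0, so these flags follow from the zeros and cannot be set against 2.7. In the family, Il12a was 0.132 FPKM in control 1, where the other control tumors were listed at 0, and Il23a was 0.527 FPKM in swimming 1, where the next tumor of the group was at 0.194 FPKM. Il23r was 0.0237 FPKM in control 3 and 0.0242 FPKM in swimming 3, with all others of each group listed at 0.

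Among the partner genes, Il6st was 17.2 FPKM in swimming 4 (next 13.4), Tyk2 was 6.63 FPKM in swimming 1 (next 7.63) and Irf8 was 9.58 FPKM in control 4 (next 6.60). Of the list scores, macrophages were at 0.41 in swimming 5 (next -0.05), NK cells at -0.39 in control 5 (next -0.12) and the interferon gamma list at -0.78 in swimming 1 (next 0.26). Swimming 1 stood apart for Il23a, Tyk2 and the interferon gamma list, while its relative depth of 0.973 was the highest of the swimming group.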

How the results depend on the processing

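The counts of genes at an adjusted p below 0.05 were 0 higher and 0 lower with all 12 tumors under every pseudocount, filter and scaling tried and with the replicate block. Leaving out each tumor gave 0 to 1 higher and 0 to 2 lower genes (1 higher and 2 lower without control 4, 2 lower without swimming 1). At an unadjusted p below 0.05, 391 genes in place of 591 were higher with a filter of 1 FPKM, which leaves 12737 genes, and leaving out each tumor gave 398 to 853. Pathway genes at an unadjusted p below 0.05 numbered 9 to 24 higher and 0 to 2 lower when each tumor was left out. With the replicate block, 451 genes were higher and 441 lower, and 12 pathway genes were higher and 1 lower. Same-numbered tumors come from different mice and their deviations had a mean correlation of -0.12, so the numbers do not pair them. The log2 difference of Il27 was 0.96 and 1.13 with pseudocounts of 0.1 and 0.01. Il27, Ebi3, Il12b, Il12rb1 and Il12rb2 had a positive difference under all 16 alternatives, while Il23a and Il27ra were negative under 4 and 3 of those that left out a tumor. The number of family and list pairs at an adjusted p below 0.05 was 0 to 3 when each tumor was left out. With tumors pooled, Il23a and the NK cell list had an r of -0.70 (permutation p adjusted to 0.0614) and no longer passed. The 7 partner pairs did not pass under any alternative. Depth limits what can be read from Il12a and Il23r, which were at 0 in most tumors, and from Il27 in control 2, which rests on 3 steps.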
